A study of Mus musculus with 3 samples.

Results

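The genes described here encode mitochondrial ribosomal proteins, the nuclear-encoded protein parts of the ribosome that works inside mitochondria. They were chosen by name alone. A gene was a member if it had a transcript annotated as protein_coding and a symbol that began with Mrpl or Mrps followed by a digit. By this rule 78 genes were found among 55536 genes in the tables, of which 22015 were nuclear and protein-coding. The members fell into 51 proteins of the large subunit, 26 of the small subunit, and Mrps36, whose protein is not seen in structures of the ribosome.

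The RNA came from the cytosolic fraction of bone marrow-derived macrophages, primary cells grown out of marrow, of the mouse strain C57BL/6J. All cells were treated for 40 minutes with Lipid A at 100 ng/ml, which is the part of bacterial lipopolysaccharide sensed by Toll-like receptor 4. Ribosomal RNA was depleted from 1 µg of RNA and total RNA was sequenced in 3 libraries, labelled as biological replicates 1, 2 and 3 of 1 group. Their sample records share 1 donor record, so p-values here measure the spread of these 3 libraries only, and that may be technical. Cells without Lipid A and other cell fractions were not analysed here, and no value below is a response to Lipid A. In bulk RNA, fewer cells with a message and less of it per cell cannot be told apart.

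The libraries held 37861150, 37136495 and 58889061 expected counts in genes. Nuclear protein-coding genes took 32.8%, 36.2% and 23.5% of the TPM (an abundance corrected for transcript length and scaled to the same total in each library), and 88.7% of the 11164 nuclear protein-coding genes tested below had their lowest TPM in replicate 3. All 8 macrophage markers were at 1 TPM or more, with sums of 5682 to 9671 TPM. The neutrophil markers summed to 33.6 to 44.2 TPM with Ly6g listed at 0, the lymphocyte markers to 0.05 TPM or less, the erythroid markers to 0.01 to 0.05 TPM and the stromal markers to 0.08 to 0.23 TPM. The part of those other cells in the levels below was not tested.

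Mitochondria keep a small genome whose messages code for core subunits of the respiratory chain, and a dedicated ribosome translates them. The RNA of that ribosome comes from the mitochondrial genome, but its proteins are made in the cytosol from nuclear messages and then imported. Many of its proteins have bacterial counterparts, and the others are found only in mitochondrial ribosomes. Some of the latter have taken the place of RNA that was lost during evolution.

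Every member was expressed, and most stood at a moderate level. All 78 reached 1 TPM, and the smallest count in any library was 109. The median member stood at 10.8 TPM, against 6.15 TPM for the 11445 nuclear protein-coding genes detected (mean of at least 0.1 TPM). The upper and lower quartiles of the members differed 2.58-fold, and those of all detected genes 9.01-fold. From the lowest to the highest member the means differed 38.9-fold. There were 54 members between 5 and 20 TPM, and 1 member, Mrps21, in the top 10% of detected genes, which began at 41.7 TPM. Together the members made up 0.110%, 0.120% and 0.108% of the counts and 0.320%, 0.342% and 0.338% of the protein-coding TPM in replicates 1, 2 and 3.

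The order of the members was stable between libraries, although neighbours in it were mostly not separable. Of the 3003 possible pairs of members, 86.0% had the same order in all 3 libraries. Of the 77 pairs of neighbours by mean level, 76 had overlapping ranges. The exception was the pair at the top, Mrps21 and Mrpl33. Among the 10 highest members, 6 were in the first 10 of every library, and among the 10 lowest, 7 were in the last 10 of every library.

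**Figure D1:**
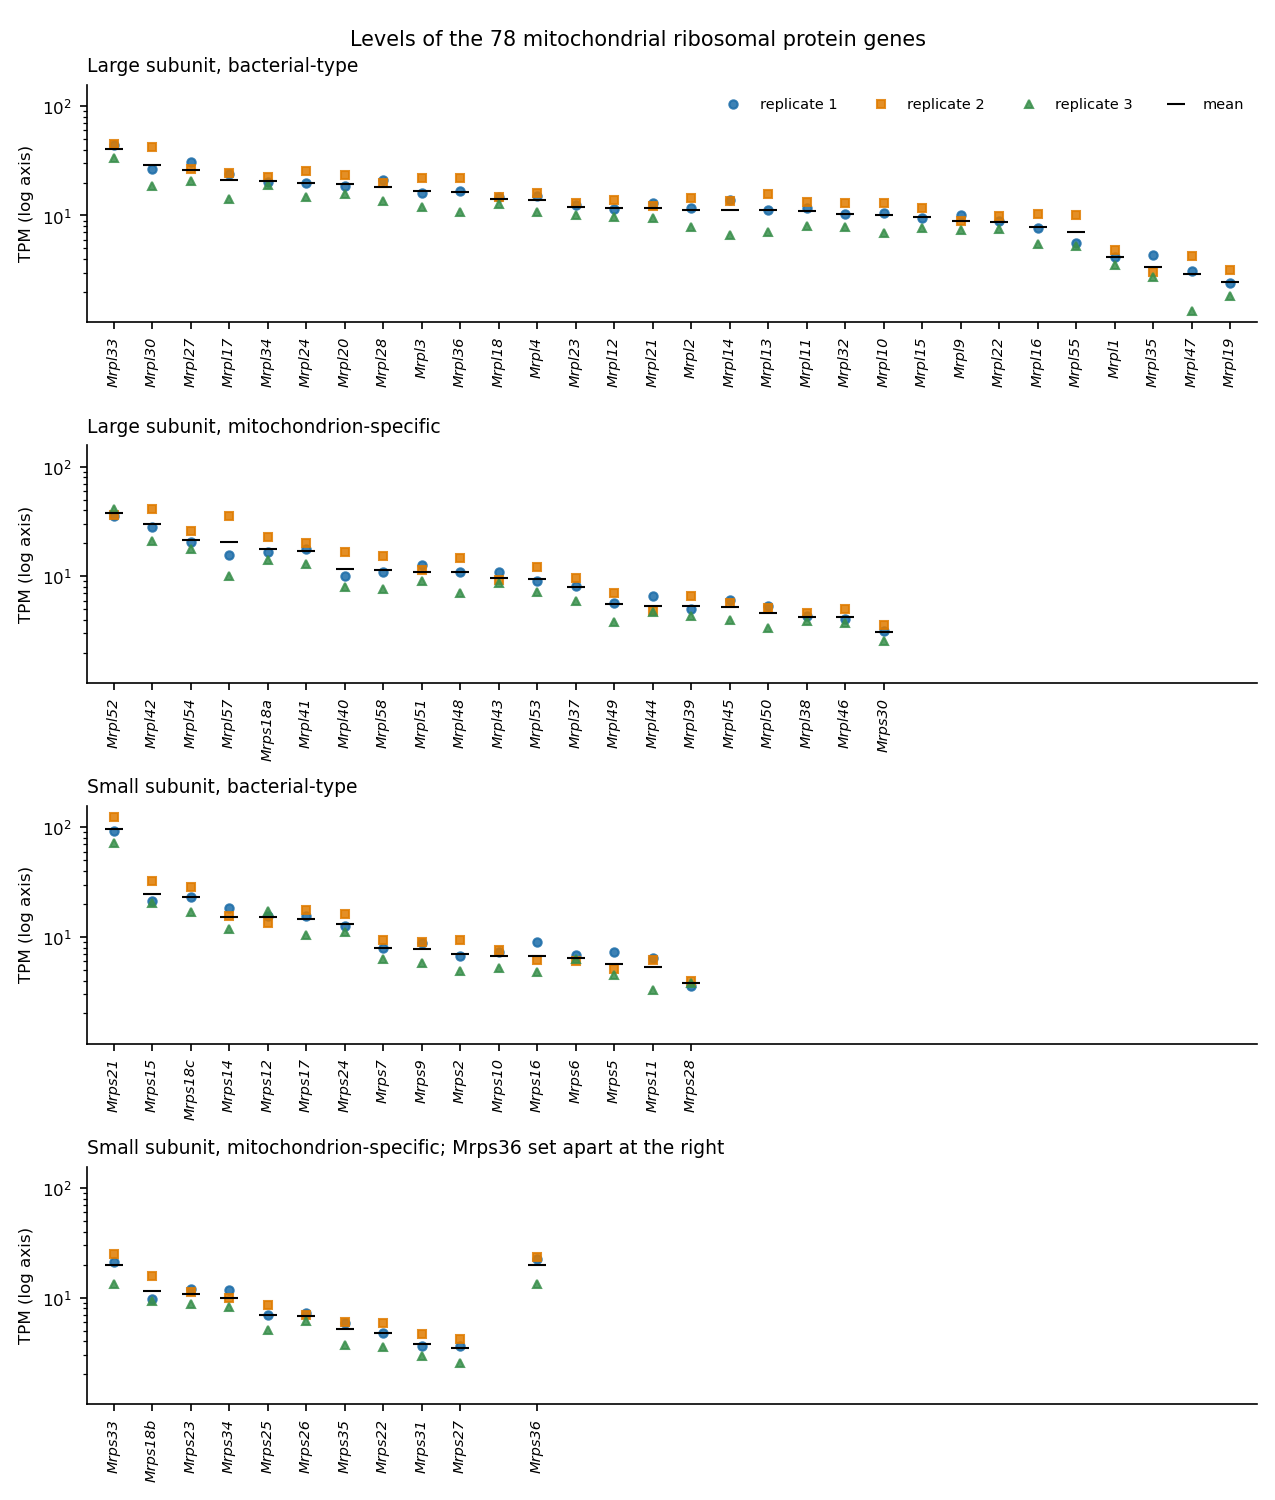
TPM of each member in each library on a log axis, with the 4 structural groups in separate panels, genes ordered by mean level, coloured points for the 3 libraries and a dash for their mean. Mrps21 stands at 96.7 TPM above all other members, and in most genes replicate 3 (triangles) is the lowest point.

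The 30 large-subunit proteins with a bacterial counterpart had a median of 11.5 TPM and ran from 2.48 to 40.8 TPM. Mrpl33 was the highest, with 43.7, 44.9 and 33.6 TPM in replicates 1, 2 and 3 and a mean of 40.8 ± 6.22 TPM (SD, n = 3). Mrpl30 had 26.6, 42.2 and 18.6 TPM (29.1 ± 12.02), with replicate 2 above both others. Mrpl27, the counterpart of a bacterial protein that reaches towards the site of peptide bond formation, had 30.8, 26.5 and 20.6 TPM (26.0 ± 5.14). The ranges of Mrpl30 and Mrpl27 overlapped, so these neighbours did not differ beyond their spread. At the low end, Mrpl47, a protein near the exit of the nascent chain, had 3.11, 4.31 and 1.33 TPM (2.92 ± 1.499). Mrpl19 had 2.43, 3.18 and 1.84 TPM (2.48 ± 0.672), the lowest mean of all members, and its range lay inside that of Mrpl47.

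The 21 large-subunit proteins found only in mitochondria had a median of 9.60 TPM and a range of 3.09 to 37.6 TPM. Mrpl52 led with 35.5, 36.0 and 41.4 TPM (37.6 ± 3.27, SD, n = 3), and it was 1 of 2 members with the highest TPM in replicate 3. Mrpl42 had 28.0, 40.7 and 21.1 TPM (29.9 ± 9.95). Its range reached into that of Mrpl52, and Mrpl52 was the higher in TPM in 2 of the 3 libraries. In counts, which are not divided by length, Mrpl52 had 389, 353 and 785 and Mrpl42 had 669, 884 and 1001. The main transcript of Mrpl52 was 418 bases long and that of Mrpl42 661 bases. Mrpl54 followed with 20.4, 26.1 and 17.7 TPM (21.4 ± 4.27). The lowest of this group were Mrpl46, with 4.09, 5.02 and 3.73 TPM (4.28 ± 0.666), and Mrps30, with 3.15, 3.58 and 2.55 TPM (3.09 ± 0.517). Mrps30 carries a small-subunit symbol, but its protein sits in the large subunit, as does that of Mrps18a.

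The 16 small-subunit proteins with a bacterial counterpart had a median of 7.84 TPM, and they included the member with the highest level. Mrps21 had 92.7, 125 and 72.4 TPM and a mean of 96.7 ± 26.5 TPM (SD, n = 3). That was 2.37 times the mean of Mrpl33, and Mrps21 was the higher in all 3 libraries, by 1.20 ± 0.22 on a log2 scale of TPM + 1. Mrps21 alone held 8.83%, 10.1% and 9.11% of the summed TPM of the members. Its lead was narrower in counts, which are not divided by length. Mrps21, with a main transcript of 488 bases, had 1179, 1340 and 1815 counts. Mrpl24, with one of 1226 bases, had 978, 1168 and 1426 counts. Mrps15 had 21.2, 32.2 and 20.3 TPM (24.6 ± 6.61), and Mrps18c had 23.4, 28.6 and 16.8 TPM (22.9 ± 5.91), with overlapping ranges. Mrps11 was among the lowest, with 6.45, 6.10 and 3.27 TPM (5.27 ± 1.74). Mrps28, the lowest of the group, had 3.56, 3.94 and 3.82 TPM (3.77 ± 0.194). After TMM scaling, described below, its SD of log2 CPM was 0.30, against a median of 0.16 in the members.

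The 10 small-subunit proteins found only in mitochondria had a median of 6.83 TPM. Mrps33 led with 21.2, 24.9 and 13.4 TPM (19.8 ± 5.85, SD, n = 3). Mrps18b had 9.62, 15.6 and 9.25 TPM (11.5 ± 3.56), and Mrps23 had 12.04, 11.3 and 8.69 TPM (10.7 ± 1.76), so the second and the third in this group overlapped. Mrps31 had 3.61, 4.66 and 2.94 TPM (3.74 ± 0.867). Mrps27, which belongs to the pentatricopeptide repeat family of RNA-binding proteins, had 3.65, 4.22 and 2.53 TPM (3.47 ± 0.860). The ranges of these last members overlapped.

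The 3 Mrps18 genes are paralogs whose proteins went to different places in the ribosome. Mrps18c encodes the small-subunit counterpart of the bacterial protein, Mrps18b another small-subunit protein and Mrps18a a large-subunit protein. Mrps18a had 16.7, 22.9 and 14.0 TPM (17.8 ± 4.56, SD, n = 3), between the values of Mrps18c and Mrps18b given above. In each of the 3 libraries Mrps18c was above Mrps18a and Mrps18a above Mrps18b. The steps were 0.34 ± 0.11 and 0.60 ± 0.11 in log2(TPM + 1). Mrps36, known also as a subunit of the 2-oxoglutarate dehydrogenase complex of the citric acid cycle, had 22.5, 23.4 and 13.4 TPM (19.8 ± 5.54), well inside the range of the ribosomal members.

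Members of the large subunit had higher levels than those of the small subunit. Their medians were 11.3 and 7.38 TPM, and the large subunit was higher by 0.38, 0.48 and 0.31 in log2(TPM + 1) in replicates 1, 2 and 3 (mean 0.39 ± 0.09, n = 3, SD). The difference was in the same direction in each library, although the groups overlapped widely and without length correction it was 0.19 ± 0.18 on log2(CPM + 1), where CPM is counts scaled to the library total. Members with a bacterial counterpart were above mitochondrion-specific ones by 0.31 ± 0.15. Within the large subunit that difference was 0.24 ± 0.01, and within the small subunit it was 0.23 ± 0.07. Without length correction the difference between bacterial-type and mitochondrion-specific members was 0.086 ± 0.052, and within the large subunit it was 0.082 ± 0.028.

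Short members had higher levels per length. The median coding length of the members was 582 bases, against 1350 bases for all detected protein-coding genes. The 10 members with the highest TPM had a median coding length of 428 bases and the 10 with the lowest 942 bases. Across the 78 members, Spearman's rho between coding length and TPM was -0.57, against -0.10 across the detected genes. With CPM in place of TPM it was -0.02 for the members and 0.18 for the detected genes. These are correlations across genes that share the same libraries, and the length is itself part of TPM. The size range recorded for the libraries was 250 to 400 bases. The main transcripts of Mrps21, Mrpl33 and Mrpl52 were little longer, at 488, 478 and 418 bases. The part of that size range in the TPM of short transcripts was not tested.

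The messages of the mitochondrial ribosome were far below those of the cytosolic ribosome. The 82 cytosolic ribosomal protein genes had a median of 296 TPM, and the members were lower in log2(TPM + 1), by -4.63 ± 0.12 (mean and SD of 3 libraries) with -4.75, -4.62 and -4.51 in the single libraries. Of these 82 genes, 78 were in the top 10% of detected genes. The 85 nuclear genes for subunits of the respiratory chain, the complexes that also take up the products of the mitochondrial ribosome, had a median of 42.9 TPM. The differences of the members from those were -2.02, -1.94 and -1.95 (-1.97 ± 0.04), and -1.19 without length correction. Both differences had the same direction in every library.

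By median, the members stood above the nuclear genes for mitochondrial translation factors, ribosome assembly and tRNA synthetases. Some factor and assembly genes were nevertheless above the median member. The 5 further ribosomal proteins that carry other symbols fell within the range of the members. Aurkaip1 was at 21.3 ± 6.37 TPM, Chchd1 at 16.9 ± 3.04 TPM, Dap3 at 10.2 ± 4.29 TPM, Ptcd3 at 4.05 ± 1.31 TPM and Gadd45gip1 at 2.65 ± 0.647 TPM (SD, n = 3). The 17 genes for translation factors and their helpers had a median of 3.05 TPM, and the members were higher by 1.41 ± 0.13 in log2(TPM + 1), and by 0.45 without length correction. Slirp, a stabiliser of mitochondrial messages, was their highest at 23.7 ± 6.52 TPM, followed by the elongation factor Tufm at 12.8 ± 2.36 TPM and the membrane insertase Oxa1l at 11.3 ± 3.92 TPM. Mtrf1l, a release factor, was the lowest at 1.49 ± 0.541 TPM.

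Genes for assembly of the mitochondrial ribosome were lower still. The 26 assembly genes had a median of 2.59 TPM, and the members were higher by 1.62 ± 0.09 (SD over the libraries) in log2(TPM + 1), and by 1.08 without length correction. Rbfa, a maturation factor of the small subunit, led with 17.8 ± 3.57 TPM, ahead of the helicase Dhx30 at 11.8 ± 3.88 TPM and Mpv17l2 at 8.17 ± 1.79 TPM. The methyltransferase gene Mettl15 was the lowest at 0.473 ± 0.0321 TPM. The 17 mitochondrial tRNA synthetases, which charge tRNAs with amino acids, had a median of 1.82 TPM, and the members were higher by 1.98 ± 0.23, and by 0.83 without length correction. They ran from Fars2 at 6.88 ± 1.26 TPM, Iars2 at 6.68 ± 1.07 TPM and Rars2 at 5.78 ± 1.74 TPM down to Mars2 at 0.233 ± 0.0379 TPM. All 17 were therefore below the median member.

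**Figure D2:**
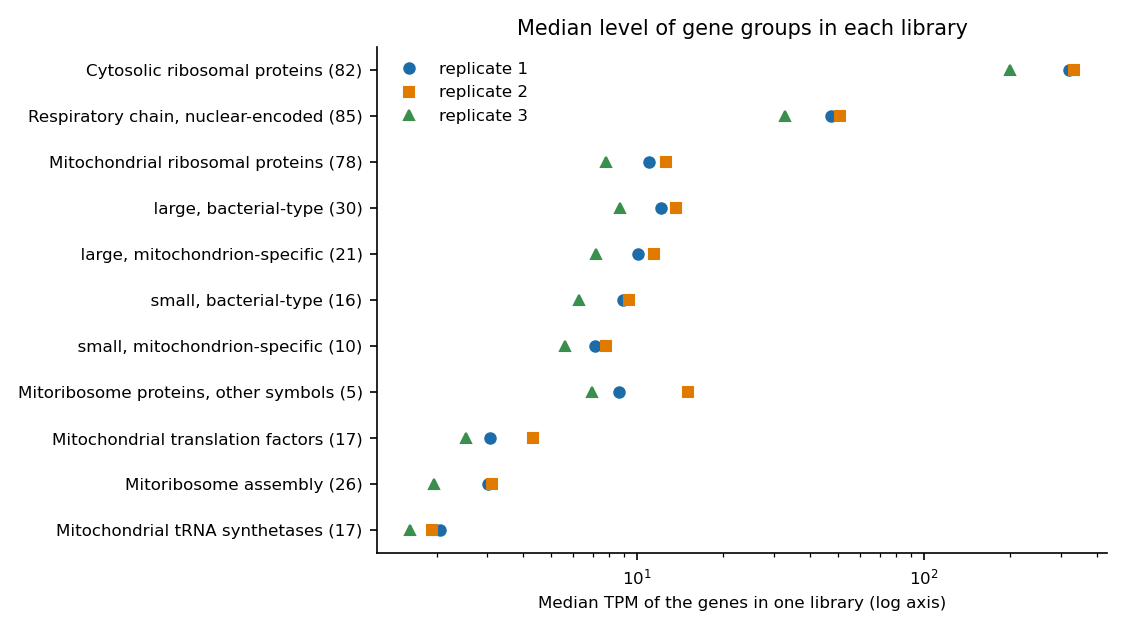
Median TPM of each gene group in each of the 3 libraries, on a log axis, with the number of genes in parentheses. The members lie near 10 TPM in every library, below the cytosolic ribosomal proteins and the respiratory chain and above the translation factors, the assembly genes and the tRNA synthetases.

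No member passed the test for spread between the libraries. In edgeR's goodness-of-fit test, which asks whether a gene's counts spread more than those of other genes at the same level, 12250 genes were tested and 191 passed an adjusted p of 0.05, or 1.56%. All 78 members were tested, 0 passed, and 3 had an unadjusted p under 0.05, against 6.24% of all genes tested at that unadjusted level. The median SD of log2 CPM was 0.16 in the members and 0.16 in the 5072 genes of the same range of levels. The other nuclear groups of mitochondrial translation, the respiratory chain and the cytosolic ribosomal proteins also had 0 genes past edgeR's threshold, with 11 of 79 cytosolic ribosomal protein genes, 10 of 79 respiratory chain genes, 1 tRNA synthetase and no other gene of those lists at an unadjusted p under 0.05. By contrast, both rRNAs of the mitochondrial genome and 3 of its 12 tested mRNAs passed. Ribosomal RNA had been depleted from these libraries, and the part of depletion in the spread of the rRNAs was not tested. The mRNA mt-Co2, with 767, 0 and 644 counts in replicates 1, 2 and 3, was left out by the filter.

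Mrpl57 varied most. Its log2 CPM was 3.36, 4.18 and 3.22 in replicates 1, 2 and 3, an SD of 0.52, with an unadjusted p of 0.00291 and an adjusted p of 0.129 in edgeR's goodness-of-fit test. Replicate 2 was high and the other libraries were close to each other. Mrpl40 showed the same shape, with 3.51, 4.17 and 3.58 (SD 0.36, edgeR adjusted p 0.794). Mrpl30 did too, with 4.29, 4.83 and 4.23 (SD 0.33, edgeR adjusted p 0.71). Mrpl55 had 2.34, 3.00 and 2.65, again highest in replicate 2, whereas Mrps6 had 2.63, 2.31 and 2.95 and was highest in replicate 3. Their TPM was 11.6 ± 4.52 for Mrpl40, 7.03 ± 2.73 for Mrpl55 and 6.36 ± 0.436 for Mrps6 (SD, n = 3). At the other end, Mrpl4 had 4.51, 4.47 and 4.48, an SD of 0.02.

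**Figure D3:**
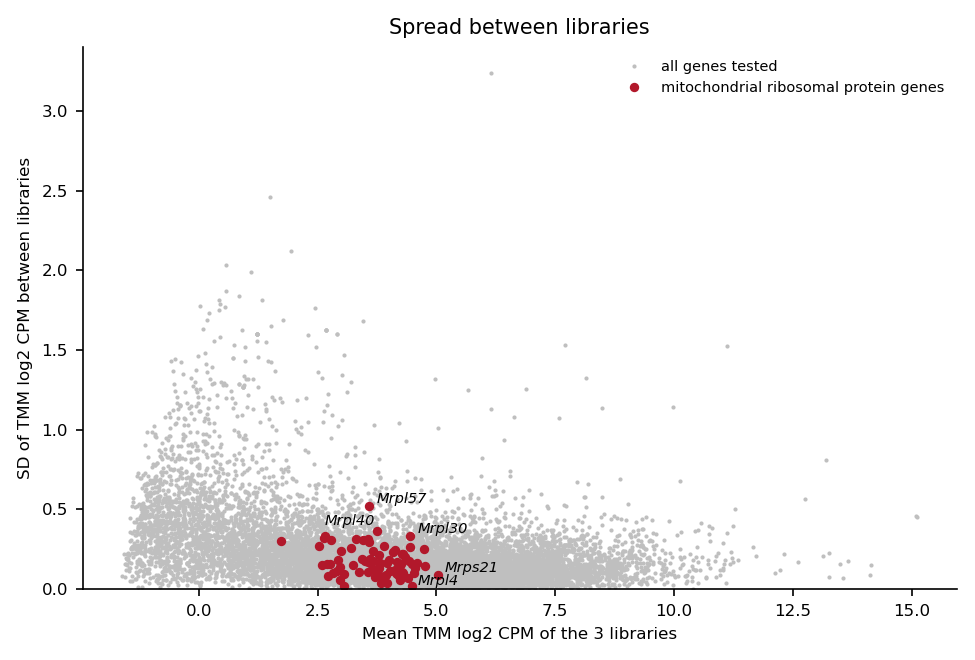
SD of log2 CPM between the 3 libraries against its mean, with all 12250 genes tested in grey and the 78 members in red. The members lie within the cloud of genes of their level, and Mrpl57 has the largest SD among them, 0.52.

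A shift shared by the members was small. After TMM scaling, a correction for composition, 39 of the 78 members were highest in replicate 2, which is 50%, against 37.1% of all genes tested. Replicate 1 was the highest for 18 members, against 30.6% of all genes, and replicate 3 for 21, against 32.3%. The lowest value was in replicate 1 for 31 members (30.4% of all genes), in replicate 2 for 25 (36.9%) and in replicate 3 for 22 (32.7%). The median member deviated from its own mean by -0.05, 0.06 and -0.01 log2 units in replicates 1, 2 and 3. The cytosolic ribosomal protein genes were highest in replicate 1 in 53 of 79 cases and in replicate 3 in 1 case. On the TPM scale 74 members were lowest in replicate 3, and so were 85.6% of all genes tested.

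Most of the transcript abundance of the members lay in coding transcripts. GENCODE lists 343 transcripts for the members, of which 170 are protein_coding, 88 retain an intron, 61 are processed transcripts without an annotated reading frame and 24 are marked for nonsense-mediated decay, the pathway that destroys messages with a premature stop. In the second transcript tables, protein_coding transcripts held 84.8% ± 0.252 of the summed TPM of the members (SD, n = 3), against 91.2% over all detected genes. Retained introns held 5.57% ± 0.839, decay-marked transcripts 5.17% ± 0.658 and processed transcripts 4.41% ± 0.413. The first transcript tables gave 86.3% ± 0.177 for protein_coding. In 53 of the 78 members under 10% lay outside protein_coding transcripts.

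A subset of members was assigned mainly to other transcripts. In 15 of the 78 members, or 19.2%, over 50% of the mean TPM lay outside protein_coding transcripts, compared with 7.3% of the 11427 detected protein-coding genes with a value. In 12 of them this held in the first tables as well, and in 11 it held in every library. In the large subunit the shares were 94.6% for Mrpl57, 91.9% for Mrpl32, 84.3% for Mrpl51, 80.1% for Mrpl15, 73.2% for Mrpl3, 71.8% for Mrpl47, 59.8% for Mrpl35 and 50.4% for Mrpl13. In the small subunit they were 93.1% for Mrps26, 91.5% for Mrps16, 89.7% for Mrps14, 74.2% for Mrps25, 63.6% for Mrps35, 51.3% for Mrps5 and 50.8% for Mrps24. Mrps24 was the least stable, with 38.6%, 71.3% and 16.4% in replicates 1, 2 and 3, and the first tables gave it 25.6%.

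The leading other transcripts of these 15 members differed in how much of the coding transcript's reading frame they held. They contained all of its coding bases in 4 members, over 95% in 6 (these 4 included), from 50% to 95% in 7 and under 10% in 2. Mrpl57 is a case of the first kind. Its retained-intron transcript, 519 bases long, had 6.83, 16.1 and 2.84 TPM in replicates 1, 2 and 3, and its coding transcript, 2877 bases long, had 0.525, 0.632 and 0.312 TPM. The short transcript was the higher in every library, and it contained 100% of the coding bases of the long one. Both transcripts were highest in replicate 2, the library in which Mrpl57 as a gene was high. The short transcript held 94.6% of the gene's mean TPM, so its agreement with the gene is not a separate observation. TPM is scaled to length, so a share of TPM in a short transcript is not the same share of reads.

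The others that held all coding bases were Mrps14, Mrps24 and Mrps26. In Mrps14 a decay-marked transcript of 674 bases covered 100% of the coding bases of the coding transcript of 2999 bases and had 7.40, 6.97 and 2.98 TPM against 0.657, 0.378 and 0.297 TPM. The leading other transcript of Mrps16 held 97.5% of the coding bases and that of Mrpl32 96.6%. In Mrps25 the coding transcript was 6073 bases long and the leading other transcript 565 bases, with 53.0% of the coding bases. The values between were 89.2% for Mrpl35, 83.0% for Mrpl3, 82.4% for Mrpl13, 79.4% for Mrpl51, 69.1% for Mrpl15 and 58.9% for Mrpl47. The leading other transcripts of Mrps35 and Mrps5 shared 0% and 5.52% of the coding bases of the leading coding transcript. Whether the annotated class of these transcripts matches what the RNA encodes was not tested. The gene-table levels of these members were 20.4 ± 13.3 TPM for Mrpl57, 16.6 ± 4.99 for Mrpl3, 15.3 ± 3.18 for Mrps14, 13.2 ± 2.55 for Mrps24, 11.3 ± 4.26 for Mrpl13, 11.0 ± 1.83 for Mrpl51 and 10.4 ± 2.63 for Mrpl32 (SD, n = 3). Without replicate 2 the level of Mrpl57 was 12.9 TPM. They were 9.66 ± 1.99 TPM for Mrpl15, 6.88 ± 1.74 for Mrps25, 6.78 ± 0.637 for Mrps26, 6.66 ± 2.18 for Mrps16, 5.63 ± 1.497 for Mrps5, 5.20 ± 1.28 for Mrps35 and 3.40 ± 0.866 for Mrpl35.

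**Figure D4:**
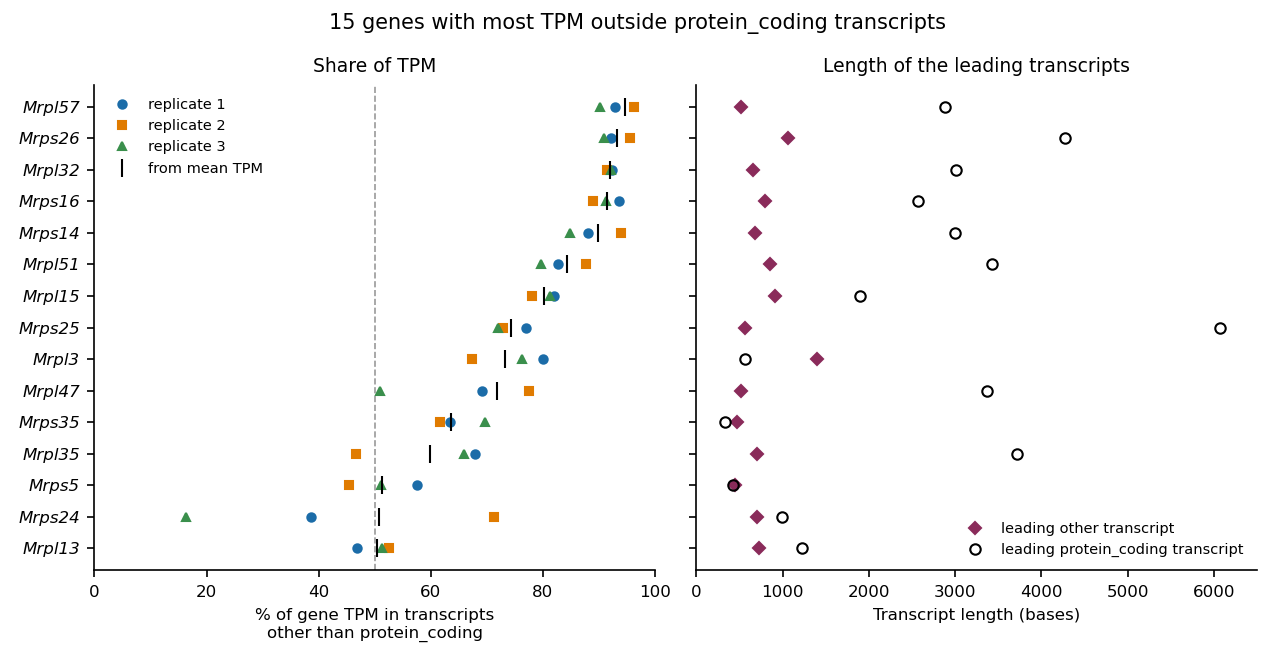
Left, the percentage of TPM outside protein_coding transcripts in each library (points) and from the mean TPM (bar) for the 15 members above 50% (dashed line). Right, the length in bases of the leading other transcript (diamonds) and of the leading protein_coding transcript (circles); in 12 of the 15 genes the coding transcript is the longer.

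Mrpl23 was the 1 member whose level differed over 3-fold between the tables beyond their common offset. The gene tables were above the second tables by a median of 2.30-fold in the members and 2.30-fold in all detected genes. Mrpl23, a large-subunit protein with a bacterial counterpart, had 12.5, 13.0 and 10.1 TPM (11.8 ± 1.55, SD, n = 3) in the gene tables and 1.19, 0.773 and 0.432 TPM in the second tables, a ratio of 14.8. Its processed pseudogene Mrpl23-ps1 had 16.2, 21.01 and 11.5 TPM in the gene tables and 13.2, 15.6 and 6.12 TPM in the second tables. Of the sum of both loci, Mrpl23 held 43.5%, 38.1% and 46.6% in the gene tables and 8.23%, 4.72% and 6.58% in the second tables. The summed level of both loci differed 2.26-fold between the tables, close to the offset of the other members.

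The pseudogene transcript on chromosome 2 held all 438 coding bases of the Mrpl23 transcript Mrpl23-201, from a gene at chr7:142532686-142540747 in mm10, with 438 identical, and the identical run was 540 bases long. Reads from that run cannot be assigned to either locus by their sequence, so the level of Mrpl23 is uncertain. The first 90 coding bases, read from the GENCODE M21 transcript and the same in both, are shown with the start codon in capitals.
Mrpl23-201: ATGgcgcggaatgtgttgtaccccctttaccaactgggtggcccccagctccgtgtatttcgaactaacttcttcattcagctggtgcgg
Pseudogenes with the name of Mrps36 or Mrpl48 had at most 0.42 TPM in any library.

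Many members shared their start region with a neighbour on the opposite strand. A head-to-head pair was counted where genes on opposite strands had starts within 1000 bases of each other. In 15 of the 33 cases found, the genes overlapped at their starts, and in 18 they lay apart. Such a neighbour was found for 33 of the 78 members, or 42.3%, in 32 pairs, against 10.8% of 21998 nuclear protein-coding genes and 17.6% of the 11440 detected ones. For comparison, 31 of 85 respiratory chain genes and 16 of 82 cytosolic ribosomal protein genes had such a neighbour. It was found for 25 large-subunit and 8 small-subunit members. Members with a head-to-head neighbour had a median of 10.9 TPM and the 45 others 10.7 TPM.

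A pair on chromosome 7 joins a member of each subunit. Mrps11 (chr7:78783119-78792989, plus strand) and Mrpl46 (chr7:78775236-78783531, minus strand) in mm10 overlap, with starts 412 bases apart. Their levels, given above, overlapped, and Mrpl46 was the higher in 1 of 3 libraries. Mrps12, a protein of the decoding site, lies head to head with Sars2, the mitochondrial seryl-tRNA synthetase, with starts 172 bases apart. Mrps12 had 15.4, 13.3 and 17.1 TPM (15.3 ± 1.93) and Sars2 had 1.80, 1.93 and 1.28 TPM (1.67 ± 0.344, SD, n = 3). The member was the higher in every library.

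The neighbours spanned a far wider range of levels than the members. In 20 of the 33 cases the member was the higher in all 3 libraries, in 10 the lower in all 3, and in 3 the order varied. The widest gap was that of Mrpl49, at 5.65, 7.09 and 3.85 TPM, beside Fau, a gene for a ubiquitin-like protein fused to a cytosolic ribosomal protein, at 670, 1019 and 505 TPM, with starts 59 bases apart. Mrpl47 stood beside Ndufb5, a complex I subunit, which had 34.2, 31.9 and 18.8 TPM. Mrpl36, at 16.5 ± 5.60 TPM, overlapped the start of Ndufs6, also of complex I, with 30 shared exon bases; Ndufs6 was at 32.0 ± 14.0 TPM. Mrpl43 was at 9.60 ± 1.22 TPM beside Twnk, the mitochondrial DNA helicase, at 1.06 ± 0.217 TPM, and Mrps27 beside Ptcd2 at 7.32 ± 1.33 TPM. Of the neighbours, 3 were under 0.1 TPM. These pairs, other than those of Mrps11, Mrpl46 and Mrps12, were chosen after their values were seen.

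**Figure D5:**
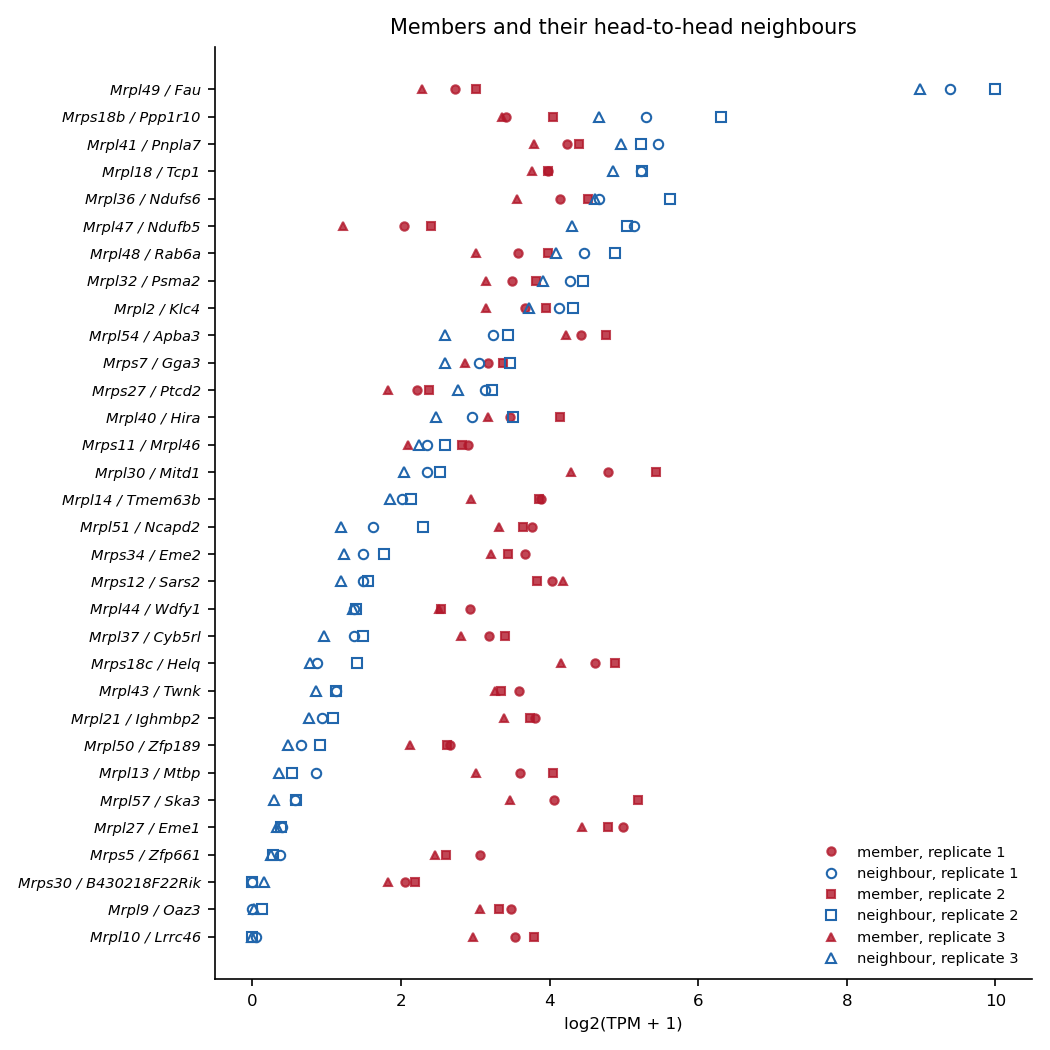
log2(TPM + 1) of the members (filled red) and of their head-to-head neighbours (open blue) in each library, for 32 pairs ordered by the neighbour's mean. Members keep to a narrower band, while the neighbours run from 0 to the level of Fau beside Mrpl49.

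Overlap with other genes also touches some values. Exons of 33 members share bases with exons of another gene, on the same strand for 8 members and on the opposite strand for 28. The share of the member's exon bases was 88.0% for Mrpl53 with Gm42688, 69.8% for Mrps25 with Nr2c2, 63.4% for Mrps34 with Mapk8ip3, 37.0% for Mrps34 with Nme3 and 36.0% for Mrpl19 with Gcfc2. Mrpl53 and Mrps34 share these bases with Gm42688 and Nme3 on the same strand, where reads of the shared bases could come from either gene. For the pairs on opposite strands the strand setting of the counting, which is unknown here, decides whether reads can be mixed. These levels are therefore uncertain. These other genes were at 0.307 TPM (Gm42688), 5.03 TPM (Nr2c2), 3.78 TPM (Mapk8ip3), 7.24 TPM (Nme3) and 1.00 TPM (Gcfc2).

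The start regions of the members were searched for 3 motifs, and their shares were set beside those of all genes without a test. Promoter windows of 300 bases, 250 before the start and 50 after, were found for 69 of the 78 members in the RefSeq table of build GRCm38.p6. The ETS type motif CCGGAAGT, bound by factors such as GABP that act on many genes for mitochondrial proteins, was searched on both strands and stood in 12 members, or 17.4%, against 5.69% of 17492 protein-coding genes and 4.31% of all 27025 genes in the table. The palindromic motif of NRF1 (nuclear respiratory factor), whose letters are the capitals of Mrpl9 below, stood in 3 members, or 4.35%, against 1.47% of protein-coding genes and 1.07% of all genes. The YY1 type motif AAGATGGC stood in 12 members, or 17.4%, against 3.57% and 3.19%. In the 150 bases before the start alone, it stood in 2 members, or 2.90%, against 1.03% and 1.02%. The motifs were not confined to the members: among cytosolic ribosomal protein genes with a window 19.7% held the ETS type, 3.28% the NRF1 and 9.84% the YY1 type motif, and among respiratory chain genes 7.58%, 7.58% and 13.6%. No motif contains another. At least 1 of them was held by 25 members, a pair of them by 2, and none by 44. A match is a description of the letters and not evidence of binding.

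The levels of members with and without a motif were close. Members with the ETS type motif had a median of 12.5 TPM against 10.7 TPM without. Those with the YY1 type motif had 9.15 against 11.0 TPM. Of the 12 ETS type matches, 10 began within 100 bases before to 50 after the start, and 9 of the 12 YY1 type matches did. With the start base counted as 1, the median match began at -27 for the ETS type and at 16 for the YY1 type. Many YY1 type matches thus lay after the start, inside the transcribed region. The following stretches are shown because they place a match in a member's start region. They come from 4 of the 5 members with a match outside any annotated exon in the 150 bases before the start. Each is cut to the bases outside exons, 5′ to 3′ on the strand of the gene, with the match in capitals. They are Mrps22 (chr9:98601680-98601829, minus strand), Mrps27 (chr13:99344706-99344785, plus strand), Mrpl43 (chr19:45006443-45006557, minus strand) and Mrpl9 (chr3:94443186-94443317, plus strand), all from RefSeq on GRCm38.p6.
Mrps22: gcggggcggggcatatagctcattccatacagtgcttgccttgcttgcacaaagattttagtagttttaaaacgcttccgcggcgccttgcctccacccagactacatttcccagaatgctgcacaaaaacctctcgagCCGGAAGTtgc
Mrps27: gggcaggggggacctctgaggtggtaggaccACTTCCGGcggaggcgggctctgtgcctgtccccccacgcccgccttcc
Mrpl43: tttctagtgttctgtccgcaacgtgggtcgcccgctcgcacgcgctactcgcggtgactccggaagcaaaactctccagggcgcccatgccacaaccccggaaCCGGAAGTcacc
Mrpl9: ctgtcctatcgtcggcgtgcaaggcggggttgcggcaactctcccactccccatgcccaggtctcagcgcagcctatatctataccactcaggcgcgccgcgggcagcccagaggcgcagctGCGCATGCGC
Mrps22, Mrps27 and Mrpl43 show the ETS type motif, in Mrps27 on the opposite strand, and Mrpl9 shows the NRF1 motif. The 80 bases of Mrps27 are the whole interval between its start and that of Ptcd2. In Mrps22, Mrpl43 and Mrps27 the match began 11, 12 and 49 bases before the start, and in Mrpl9 it began 28 bases before. These genes were at 4.72 ± 1.17 TPM (Mrps22), 3.47 ± 0.860 TPM (Mrps27), 9.60 ± 1.22 TPM (Mrpl43) and 8.82 ± 1.41 TPM (Mrpl9; SD, n = 3), so a match was found at low as well as middle levels. Mrps21, the highest member, held none of these letters in its window. The members next in level, Mrpl33 at 40.8 TPM and Mrpl52 at 37.6 TPM, each held the ETS type motif.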

How the data were processed

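Each of the 3 libraries had a gene table, a first transcript table and a second transcript table. The gene tables and the first transcript tables hold expected counts and TPM as deposited by the authors. The second transcript tables hold estimated counts and TPM, also as deposited by the authors. Build mm10 and annotation GENCODE M21 are given by the deposited notes. The aligner, the counting tools, their versions and the strand setting were not given in the sources used here. All 55536 gene IDs matched GENCODE M21. Left out of library sizes and of every test were 97 spike-ins and 26248 numeric IDs, the latter with a summed count of 0. The precision of a level depends on its counts, at least 109 for any member in any library, but not on them alone. In Mrpl35 the counts rose from 422 in replicate 1 to 491 in replicate 2, while TPM fell from 4.39 to 3.05.

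Levels are TPM of the gene tables as mean ± SD over libraries. Medians of groups were compared within a library on log2(TPM + 1), which understates differences of low genes. The test for spread was run in edgeR 4.0.16 under R 4.3.3 on expected counts rounded to whole numbers, with filterByExpr, TMM, an intercept-only fit, trended dispersion, a goodness-of-fit chi-square test and Benjamini-Hochberg adjustment at 0.05 over all genes. It was tested on simulated data. Size factors of DESeq2 1.42.0 were an alternative. Transcript classes are those of the annotation. Correlations used scipy 1.17.1, and the transcripts of Mrpl23 and its pseudogene were aligned with Biopython 1.88. Promoter sequences are from RefSeq, matched by symbol or synonym. The sequences of the proteins were not analysed here.

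The members named by rule were the 3 highest and 2 lowest by mean TPM of each of the 4 structural groups, any that passed the spread test, the 5 with the largest SD of log2 CPM, those with over 50% of TPM outside protein_coding transcripts, those with a level over 3-fold apart between tables, the Mrps18 paralogs, Mrps36, and those head to head with another gene of mitochondrial translation. Of the translation factors, assembly genes and tRNA synthetases, the 3 highest and the lowest were named. Every ribosomal protein with another symbol was named. The rule was not applied in the text to the cytosolic ribosomal protein, respiratory chain and mitochondrial genome lists. Further names were chosen after their values were seen. The members, lists and tests were chosen with earlier results of these data known.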

Additional observations from a re-analysis of the deposited data

How the results depend on the processing

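The differences of medians kept their directions with another pseudocount, a filter at 1 TPM, the second tables, a rescaling to nuclear protein-coding genes, no length correction and each library left out. Subunits assigned by symbol were tried for the difference between subunits only. For the comparisons with factors, assembly and synthetases and those within a subunit, these alternatives were chosen after seeing the data. Not every alternative could have reversed a direction. Another pseudocount and the rescaling keep the order of genes in a library. Each difference had the same sign in every library, so leaving a library out could not reverse it. The filter removed no member, so it could not change differences between groups of members. The level itself depended on the scale. The median log2 level of the members was 2.38 in the second tables, 5.12 after rescaling and 3.90 without length correction. For the large subunit these values were 2.43, 5.16 and 3.94, and for the small subunit 2.11, 4.73 and 3.75. Without length correction the large subunit was above the small one by 0.19, bacterial-type members were above mitochondrion-specific ones by 0.086, and the members differed from the cytosolic ribosomal protein genes by -3.83 and from the respiratory chain genes by -1.19. In the second tables the last pair of differences was -4.34 and -1.79. The difference from the respiratory chain was -2.06 with a pseudocount of 0.1, -2.06 with the filter at 1 TPM and -2.04 after rescaling. With the pseudocount of 0.1, the second tables, rescaling and no length correction, in that order, the members were above translation factors by 1.63, 1.13, 1.58 and 0.45, above assembly genes by 1.92, 1.28, 1.84 and 1.08, and above tRNA synthetases by 2.40, 1.5, 2.29 and 0.83. Bacterial-type members of the large subunit were above the mitochondrion-specific ones by 0.26, 0.17, 0.26 and 0.082. With the filter at 1 TPM the differences from assembly genes and synthetases were 1.47 and 1.56.

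The spread test gave 0 members past the threshold under each alternative, and Mrpl57 came closest, at an adjusted p of 0.0742 in edgeR when only protein-coding genes were tested. The number of members that were lowest in replicate 3 was 37 when scaled by the library total alone, or 47.4% against 46.4% of all genes tested, and 74 on TPM. On TPM 2 members were lowest in replicate 1, 2 in replicate 2, and 2 were highest in replicate 3. Outside protein_coding transcripts lay 13.7% of the members' TPM by the first transcript tables. In the 150 bases before the start, the YY1 type motif stood in 2 members, or 2.90%, against 1.03% of protein-coding genes. Of 41 named members, 41 moved by more than 1 SD after rescaling and 39 in the second tables. With 1 library left out, the level of 1 named member moved by over 1.5-fold, that of Mrpl57, which was 12.9 TPM without replicate 2. No paired analysis was possible because all libraries belong to 1 group. The number of libraries, 3, limits the precision of every SD.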
